A study of Caenorhabditis elegans with 12 samples.

Results

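The share of each well-measured mRNA that sedimented with polysomes was compared between ife-1(bn127) mutant and wild-type N2 Caenorhabditis elegans. A probe set of the array was a member when it was no control and its deposited signal was at least 200 on all 12 arrays. Of 13333 non-control probe sets, 6567 met this minimum and 6766 did not. Of the 6567, 6276 had 1 annotated gene, 204 had several and 87 had none, and the 6276 named 5210 genes. The signal level chose the members, so levels are given as a description. An mRNA below the minimum in a single fraction of a single culture was left out, which removes some mRNAs with a large change in level. The genes nearest the minimum were fmo-5 and faah-3 at 200 and dhs-20 at 200.1 inside it, and C33F10.11 at 199.9, hsr-9 at 199.8 and ZC308.4 at 199.7 outside it.

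The study separated translating from nontranslating mRNA on sucrose gradients of 10 to 45% and hybridised each pool to an Affymetrix array. The 4 groups were nonpolysomal RNA (NP, below 80S) and polysomal RNA (P, above 80S) of wild-type N2 and of ife-1(bn127), with 3 arrays each. Every culture was a population of whole worms of mixed stages, eggs and larvae included, grown at 20 °C on agar with OP50 bacteria and chicken egg yolk, with a final passage of 3 days. The mutant cultures all carried the same allele, and no array held a dissected tissue or a single stage. The deposited outline states that the 3 harvests of a genotype were separate and that each wild-type harvest was paired with an ife-1 harvest in a numbered growth set.

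Several ribosomes translating an mRNA at the same time form a polysome, which sediments faster than a free mRNA or a single ribosome. Most initiation starts when eIF4E binds the cap at the 5′ end of the mRNA. Caenorhabditis elegans has a family of eIF4E isoforms called IFE. IFE-1 is a germline isoform that associates with P granules and is known to be needed for normal sperm and efficient oocyte production.

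The polysomal share was P/(P + NP) in a culture, and its change was the difference in log2(P/NP), ife-1 minus wild type. How the arrays were scaled to each other is unstated in the labels and headers, so a share has no absolute meaning and a change is relative to the other mRNAs on the arrays. The median share of the 6567 probe sets was 48.2%, 49.5% and 47.8% in wild-type cultures 1, 2 and 3, and 49.3%, 49.1% and 49.4% in ife-1 cultures 1, 2 and 3. The centre of the distribution therefore differed little between cultures. The median change was 0.09 over the members and 0.10 over all 13333 probe sets.

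Individual mRNAs differed far more than these medians. The middle range of mean wild-type shares, from the first to the third quartile, was 39.6 to 57.7%. The lowest share among named members was that of mps-2, which encodes a potassium channel accessory subunit, at 10.6%, 6.71% and 8.94% in the wild-type cultures. Next came Y110A2AL.4 at a mean of 10.5%, cec-3, a chromodomain gene, at 12.5%, gipc-2 at 14% and Y53F4B.45 at 14%. The highest mean wild-type shares were those of grd-14 at 88.1%, eel-1, a HECT ubiquitin ligase, at 87.4%, cnc-4, a caenacin antimicrobial peptide gene, at 85.9%, dod-6 at 85.2% and fat-5, a fatty acid desaturase, at 85.1%. The shares of eel-1, cnc-4, dod-6 and fat-5 did not pass the test of a change, with adjusted p from 0.0793 to 0.957 (limma).

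Wild-type culture 2 stood apart from the other wild-type cultures. Across the members, log2(P/NP) correlated at 0.916 between wild-type cultures 1 and 3, and at 0.823 and 0.804 between culture 2 and these. The ife-1 cultures correlated at 0.9385 (1 and 3), 0.9 (1 and 2) and 0.866 (2 and 3) with each other, and ife-1 culture 2 correlated at 0.868 with wild-type culture 1. Combined signal, P + NP, summed over 23 major sperm protein genes was 803582 and 721972 in wild-type cultures 1 and 3, 297721 in wild-type culture 2, and 305972 to 356861 in ife-1. The part of sperm content in the share changes was not tested. The targeted gene followed the labels: the combined signal of ife-1 was lower in the mutant by a log2 change of -5.46 ± 0.23 (SE; limma adjusted p = 1.48e-05).

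Polysomal share was higher in ife-1 for 215 of the 6567 members and lower for 115, at an adjusted p under 0.05 in limma with a prior variance that follows the signal level. These are 3.27% and 1.75% of the members, where the background over all 13333 probe sets was 2.22% and 1.48%. Counted as genes, with the brightest probe set of each, 181 of 5210 rose and 92 fell, against 2.5% and 1.45% of 10334 genes. At an unadjusted p under 0.05 in the same fit, 1146 members were higher and 617 lower. No such count was made over all 13333 probe sets, so unadjusted counts, here and in the gene lists, stand without a background. All 3 ife-1 cultures lay above all 3 wild-type cultures in 1263 members (19.2%; background 16.4%) and below them in 762 (11.6%; background 9.49%). By genes these were 1047 (20.1%; background 17.5%) and 611 (11.7%; background 9.62%). Of the called members, 212 that rose and 112 that fell were called present on all 12 arrays.

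These counts depended on the variance model and on single cultures. Without the signal trend in the prior variance, limma called 0 members higher and 0 lower, with 860 and 486 at an unadjusted p under 0.05. With the growth set as a block, 138 rose and 65 fell, of which 130 and 63 were among the 215 and 115. Leaving out ife-1 culture 1 left 4 higher and 1 lower, leaving out ife-1 culture 3 left 5 and 0, and leaving out ife-1 culture 2 left 177 and 126. The counts were 104 and 38 without wild-type culture 1, 339 and 191 without wild-type culture 2, and 131 and 55 without wild-type culture 3. Without ife-1 culture 1, the genes still called among these were F41F3.3, T12D8.5 and ZK550.6. Without ife-1 culture 3, F41F3.3, R02F11.1, T12D8.5, ZK550.6 and ddo-2 remained (ddo-2 is named for this count after its values were seen).

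The scaling of the arrays set the balance of directions. Of the calls, 65.2% were higher in ife-1 with the deposited scaling, 42.2% (86 higher, 118 lower) with arrays scaled to a common median, and 1.01% (8 higher, 782 lower) with arrays scaled on 14 bacterial control probe sets. The median change over all probe sets was 0.10, 0.04 and -0.48 under these scalings, and 0.03 after quantile normalization.

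**Figure D1:**
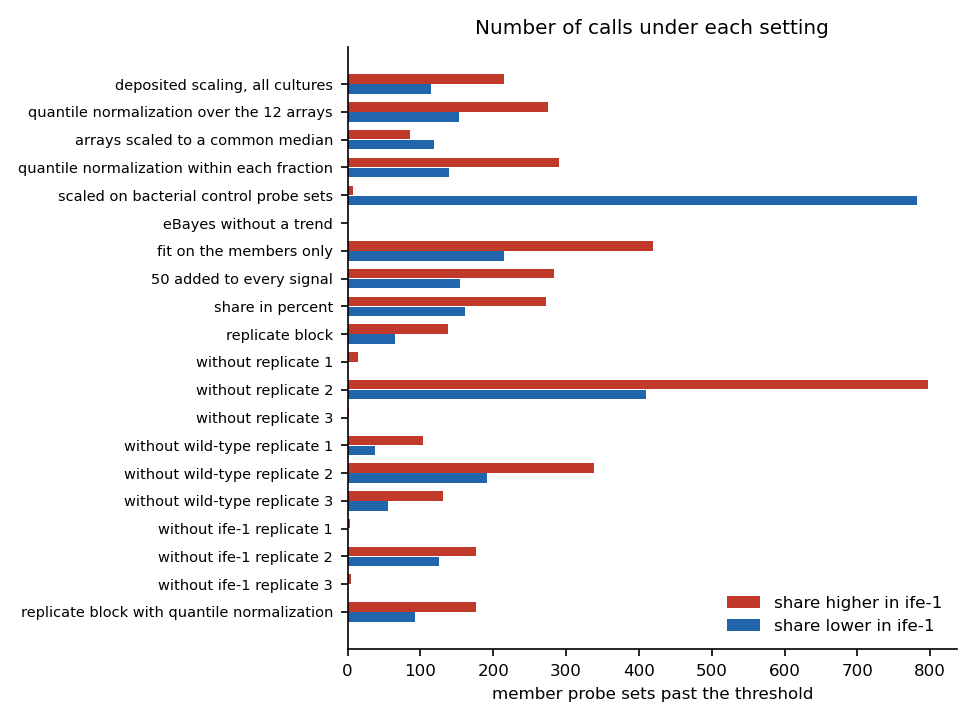
Number of member probe sets (x axis) with higher (red) or lower (blue) polysomal share in ife-1 at a limma adjusted p under 0.05, under each setting (y axis). The longest red bar, at 797, is without growth set 2 and the longest blue bar, at 782, is with scaling on bacterial control probe sets; without the variance trend both are 0.

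**Figure D2:**
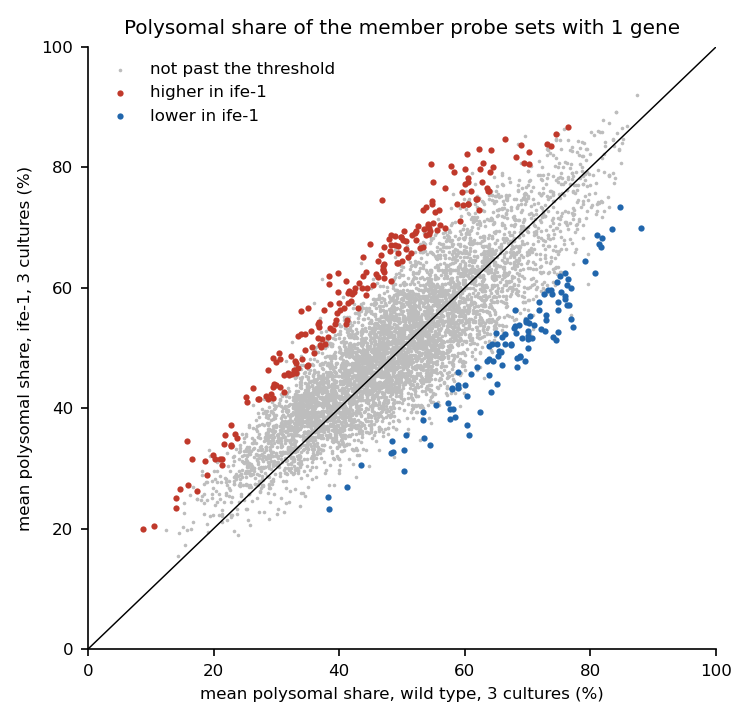
Mean polysomal share in wild type (x axis, percent, 3 cultures) and ife-1 (y axis, percent, 3 cultures) of the 6276 members with 1 gene, with the line of equal shares. Red points rose and blue points fell in ife-1, and the called points lie along both edges of the cloud, above or below the line over most of the range of wild-type shares.

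The largest gain in share was that of F41F3.3, an uncharacterised gene. Its share was 58.3%, 43.1% and 62.7% in wild type and 82.3%, 81.4% and 77.8% in ife-1, a change of 1.78 ± 0.26 (SE, n = 3 and 3; limma adjusted p = 0.00925). The groups were well separated, and wild-type culture 2 was the lowest of the 6. The polysomal signal of F41F3.3 was 21921, 20489 and 24753 in wild type and 15522, 19109 and 15942 in ife-1, whereas its nonpolysomal signal was 15654, 27028 and 14750 in wild type and 3334, 4360 and 4545 in ife-1. The gain in share thus went with a drop of the nonpolysomal signal rather than a rise of the polysomal one.

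The genes nspg-10 and nspg-8, of the nematode-specific peptide family group g, were among the 15 largest gains. The share of nspg-10 was 54.3%, 38.1% and 47.9% in wild type and 77.2%, 68.5% and 78% in ife-1 (change 1.76 ± 0.26, limma adjusted p = 0.00942). The share of nspg-8 was 67%, 63.7% and 68.6% in wild type and 85.4%, 81.1% and 87.8% in ife-1 (change 1.51 ± 0.24, limma adjusted p = 0.0128). Neither pair of groups overlapped, and both are measured by probe sets of a kind that can match several transcripts. The second member probe set of nspg-10 also rose (1.21, adjusted p = 0.0442), and that of nspg-8 did not pass (0.55, adjusted p = 0.229).

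ZK550.6 had the smallest adjusted p of the named genes. Its share was 65.6%, 56.8% and 64.2% in wild type and 84.8%, 82% and 82.5% in ife-1, a change of 1.58 ± 0.20 (limma adjusted p = 0.00643). The share of T12D8.5 was 64.4%, 50.2% and 58.8% in wild type and 80.8%, 79.4% and 80.6% in ife-1, a change of 1.57 ± 0.22 (limma adjusted p = 0.00858). Both genes had ife-1 cultures within 3 percentage points of each other and a wild-type culture 2 below the other wild-type cultures.

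The remaining genes among the 15 largest gains were Y32F6A.4, clec-150 (a C-type lectin domain gene), tag-10, dhs-14 (a short-chain dehydrogenase), epic-1, C17F4.7, cyp-37A1 (a cytochrome P450), C46C2.5, R02F11.1 and col-101 (a cuticle collagen). Their changes ranged from 1.35 for R02F11.1 and col-101 to 1.61 for Y32F6A.4, with limma adjusted p from 0.014 to 0.0311. Low and high starting shares both occurred: clec-150 went from 14.9%, 19.4% and 12.6% to 35.4%, 25.3% and 43.1%, and epic-1 from 63.8%, 57% and 71.9% to 83.9%, 84.5% and 80.4%. The smallest gap between the groups in clec-150 was between wild-type culture 2 and ife-1 culture 2.

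The largest loss was that of grd-14, a hedgehog-related gene of the groundhog family. Its share was 87.2%, 88.6% and 88.5% in wild type and 69.4%, 80.9% and 59.7% in ife-1, a change of -1.61 ± 0.31 (limma adjusted p = 0.0203). Its combined signal also fell by 2.43 on the log2 scale (limma adjusted p = 0.000684). The mutant cultures were all lower, and culture 2 of ife-1 lay closest to wild type.

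The genes sod-2 and mce-1 were among the 15 largest losses. The share of sod-2, a mitochondrial manganese superoxide dismutase, was 80.6%, 71.8% and 79.3% in wild type and 50.9%, 61.1% and 48.4% in ife-1 (change -1.58 ± 0.25, limma adjusted p = 0.0128). Its nonpolysomal signal was 1003, 1342 and 1639 in wild type and 2467, 1468 and 2730 in ife-1, while its polysomal signal was 4157, 3416 and 6270 in wild type and 2558, 2304 and 2559 in ife-1. For sod-2, therefore, the fractions moved in opposite directions, and the groups of nonpolysomal signal overlapped. The share of mce-1, a methylmalonyl-CoA epimerase, was 81%, 72.6% and 70.3% in wild type and 46.3%, 59.2% and 48.6% in ife-1 (change -1.50 ± 0.28, limma adjusted p = 0.0184).

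Low spread marked some of the losses. The share of R53.5 was 81.6%, 80.2% and 80.5% in wild type and 61.3%, 64.1% and 62% in ife-1 (change -1.34 ± 0.19, limma adjusted p = 0.00858). The share of ran-4, an orthologue of nuclear transport factor 2, was 79.7%, 75.8% and 75.3% in wild type and 52.4%, 60.2% and 52.1% in ife-1 (change -1.46 ± 0.21, limma adjusted p = 0.00925). The remaining genes among the 15 largest losses were F15B9.8, pas-4 and pas-2 (proteasome subunits), gst-43 (a glutathione S-transferase), tppp-1 (of the tubulin polymerization-promoting protein family), his-2 (a histone H3), szy-2, lsm-4 (an Sm-like protein), sup-36 and Y55F3BR.6. Their changes ranged from -1.42 for F15B9.8 to -1.25 for pas-2, with limma adjusted p from 0.0128 to 0.0362.

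**Figure D3:**
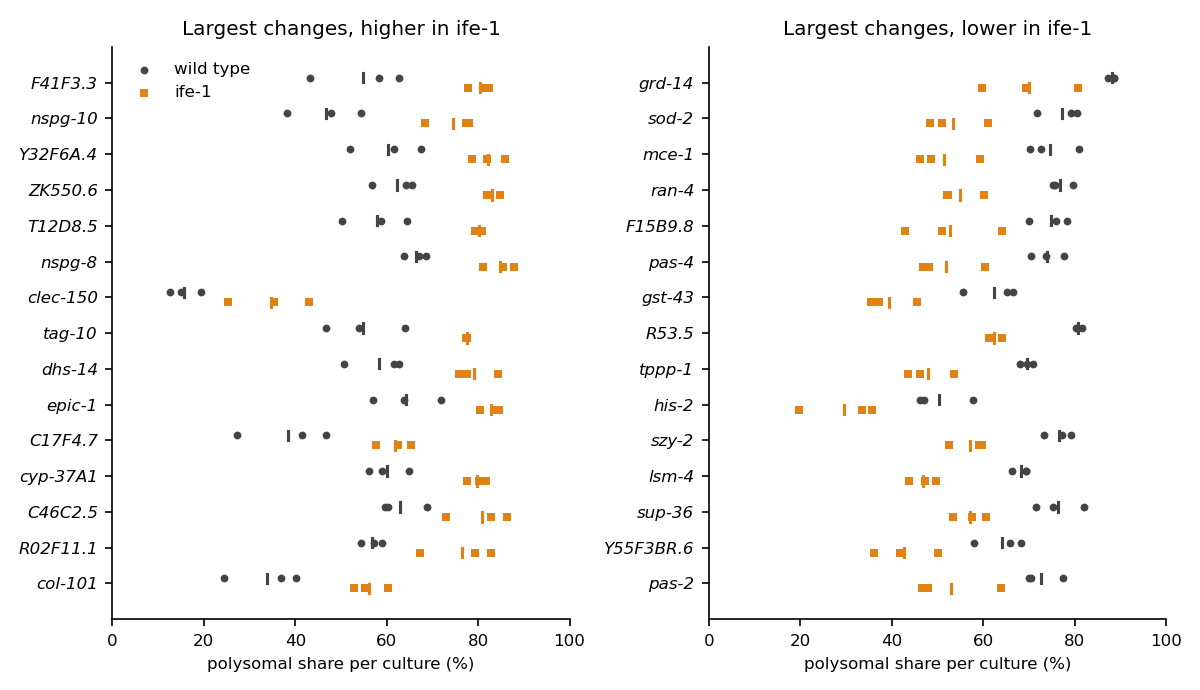
Polysomal share per culture (x axis, percent) of the 15 genes with the largest gains (left) and the 15 with the largest losses (right) in ife-1; circles are wild-type cultures, squares ife-1 cultures and bars group means. The groups do not overlap in any of these genes, as the choice of genes required.

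Gains in share lay mainly in the nonpolysomal fraction. Over the 215 members that rose, the median share went from 44.4% to 61.6%, the median change of nonpolysomal signal was -1.07 (log2) and that of polysomal signal -0.10. Polysomal signal was higher in ife-1 in 43.7% of them and nonpolysomal signal in 8.84%. Over the 115 that fell, the median share went from 68% to 50.7%, with a median change of 0.78 in nonpolysomal and -0.21 in polysomal signal. Nonpolysomal signal was higher in 86.1% and polysomal signal in 26.1% of these. Among all members the corresponding median changes were 0.23 for polysomal and 0.21 for nonpolysomal signal. These signals make up the share itself, so they describe the calls and test nothing further.

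**Figure D4:**
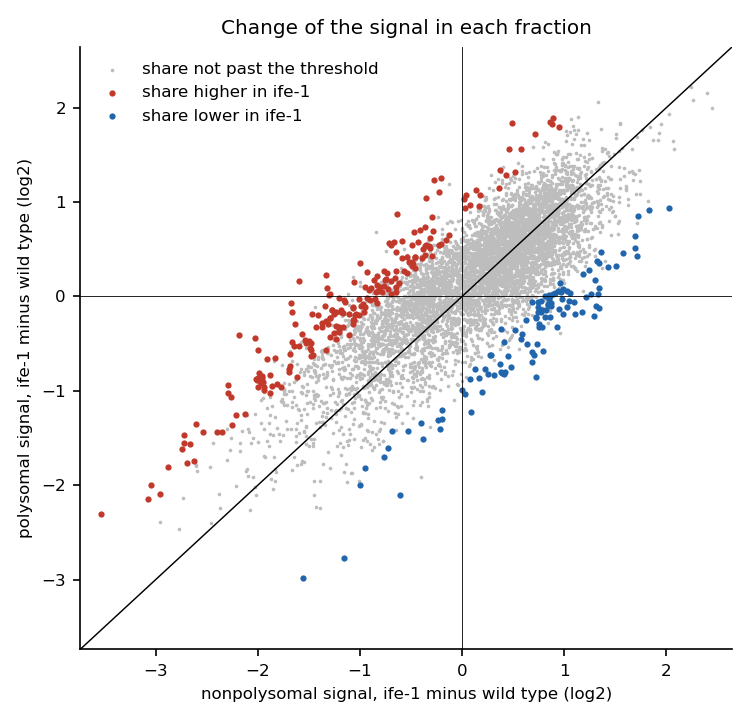
Change of nonpolysomal (x axis) and polysomal signal (y axis), ife-1 minus wild type on the log2 scale, of the 6276 members with 1 gene; points on the diagonal have an unchanged share. Most red points (share higher in ife-1) lie left of 0 on the x axis and most blue points (share lower) right of it.

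Changes in share were set beside changes in combined signal, which is also relative to the scaling of the arrays. Of the 181 genes that rose in share, 89 had lower combined signal in ife-1 by the same test, 14 had higher and 78 did not pass. Of the 92 that fell in share, 19 had higher combined signal, 11 lower and 62 did not pass. Over all members, combined signal was higher for 2060 (31.4%; background 22.9%) and lower for 1158 (17.6%; background 21.7%), in a set selected on signal. By genes it was higher for 1643 (background 22.3%) and lower for 924 (background 22.8%). Across the 6567 members the change of log2(P/NP) and that of combined signal correlated at -0.20 (Pearson) and -0.21 (Spearman), a description across probe sets that share their arrays and their signals. In whole worms, fewer cells of a type and less RNA per cell cannot be told apart.

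For the members that rose the median signal was 2791, against 1330 for those that fell and 1093 for all members, and 122 of the 215 were in the brightest of 4 equal signal bins. The SE of the change was smaller at high signal, with a median of 0.20 in the brightest bin and 0.24 in the dimmest. The change itself also shifted with signal, with medians of 0.03, 0.03, 0.08 and 0.26 from the dimmest to the brightest bin. Only 28 of the 115 losses were in the brightest bin. The part of this shift in the calls was not tested. The median span of the gene on the chromosome was 1839 bases for members that rose, 1267 for those that fell and 2480 for all members with a known span, and it was 1688 for all members in the brightest bin. Gains and losses lay at different starting shares: 73 of 1643 members with a wild-type share of 20 to 40% rose and 2 fell, whereas 31 of 1249 with a share of 60 to 80% rose and 79 fell. A starting share enters the change itself, so this order is a description and no test.

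By chromosome, the percentage of member genes that rose was 2.34% on I, 3.05% on II, 1.75% on III, 3.39% on IV, 5.24% on V and 6.30% on X, against 3.47% of all member genes. The percentage that fell was 2.63% on I and 1.05% on X, with chromosomes II to V at 1.70%, 1.34%, 2.14% and 1.40%. Genes on X were also the ones with more lower than higher calls in combined signal, 193 against 57 of 571 genes. Chromosome I had 126 lower and 386 higher of 1025 genes. Among all genes 22.8% were lower and 22.3% higher. No test of the difference between chromosomes was made.

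Cuticle collagens, the structural proteins that the hypodermis secretes, held more gains than any other of the 30 gene lists. Of 69 member genes, 22 rose and 0 fell in limma (51 rose and 0 fell at an unadjusted p under 0.05), or 31.9% higher against 2.5% of all genes. Of the 69 genes, 43 are measured by probe sets of the kinds that can match several transcripts, so the calls may not all stand for separate genes. The median change was 0.71, against 0.10 over all probe sets. The median share over the list was 44.1%, 37.4% and 46.9% in wild type and 54.2%, 55.1% and 54.1% in ife-1. Wild-type culture 2 was the lowest and the ife-1 cultures were nearly equal. The share of col-97 was 44.2%, 35.7% and 39.6% in wild type and 60.4%, 59.3% and 67.7% in ife-1 (change 1.34 ± 0.21, limma adjusted p = 0.0128), that of col-39 went from a mean of 36.8% to 54.4% (adjusted p = 0.0203), and that of dpy-4, a collagen that shapes the body, from 43.6% to 59.9% (adjusted p = 0.0184).

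The collagen mRNAs were also lower in combined signal. The combined signal of 54 of the 69 fell and that of 1, col-101, rose (change 1.08, limma adjusted p = 0.00157). Among all genes 22.8% fell and 22.3% rose. The list's median change was -1.62 in nonpolysomal and -0.87 in polysomal signal. Summed over 110 collagen genes, combined signal was 1322100 to 1405400 in wild type and 638148 to 828393 in ife-1, with no gene at 0 and 90 of 110 lower, and its part in the share change was not tested. Under the block 16 rose, with 14 of the 22 among them. The gain was 9 genes with arrays scaled to a common median, 17 with quantile normalization, 18 without wild-type culture 2, and 0 without ife-1 culture 1 or 3. Relative to all probe sets the list's median was 0.61 with the deposited scaling and 0.45 with quantile normalization.

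Enzymes and effectors of the intestine, where food is digested and fat is stored, also gained. Of 52 member genes, 9 rose (17.3%, against 2.5% of all genes) and 0 fell in limma. The median change was 0.59, and 50 of 52 changes were above 0. The list's median share was 50.2%, 41.3% and 49.6% in wild type and 55.3%, 57.5% and 54.1% in ife-1. The share of asp-13, an aspartyl protease, was 41%, 34.6% and 40% in wild type and 55.1%, 55.7% and 61% in ife-1 (change 1.10 ± 0.19, limma adjusted p = 0.0184). The cathepsin B-like protease gene cpr-6 went from 53.8%, 49.9% and 56.8% to 69.9%, 71.1% and 68.5% (change 1.01 ± 0.18, limma adjusted p = 0.0184), and cpr-9 from a mean of 36.9% to 50.5% (adjusted p = 0.0316). The intestinal list summed to 687913 to 731946 in wild type and 544411 to 614750 in ife-1 over 126 genes. Of these genes 43 were lower and 6 higher, against 22.8% and 22.3% of all genes. Wild-type culture 2 had the lowest list median, and without it the median change was 0.39 and 9 genes rose; 3 rose with a common array median and 0 without ife-1 culture 1 or 3.

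Fatty acid metabolism gained 13 of 62 member genes (21%, against 2.5% of all genes) and lost 0 in limma, with a median change of 0.36. The acyl-CoA synthetase gene acs-22 went from 64.7%, 62.9% and 59.7% in wild type to 78.3%, 81.7% and 79.1% in ife-1 (change 1.24 ± 0.21, limma adjusted p = 0.017). Its relative acs-2, a mitochondrial acyl-CoA synthetase induced by fasting, went from 48.4%, 48.1% and 50.2% to 72.8%, 60.4% and 72.5% (change 1.21 ± 0.23, adjusted p = 0.0189). The fatty acid elongase gene elo-6 went from a mean of 43.8% to 61.9% (adjusted p = 0.0213) and dhs-14 from 58.3% to 79.2% (adjusted p = 0.0184). The groups of all 4 genes were separate, and 8 of the 13 calls held with the growth set as a block, 7 with a common array median, and 0 without ife-1 culture 1, without ife-1 culture 3 or without the variance trend. Combined signal was lower in ife-1 for 24 of the 62 genes and higher for 6, against 22.8% and 22.3% of all genes.

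Detoxification genes moved both ways. Of 39 members 5 rose and 3 fell in limma, or 12.8% and 7.69% against 2.5% and 1.45% of all genes. The median change was 0.30. The cytochrome P450 gene cyp-37A1 went from 56.2%, 64.9% and 59.1% to 81.7%, 77.6% and 80.2% (change 1.40 ± 0.22, limma adjusted p = 0.014). Metallothionein mtl-1, which binds heavy metals, went from a mean of 76.4% to 86.7% (adjusted p = 0.0327). In the other direction gst-43 went from 65.2%, 55.6% and 66.5% to 37.2%, 45.4% and 35.4% (change -1.37 ± 0.27, adjusted p = 0.0213), alongside sod-2. The members thus did not move as 1 group.

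Proteasome subunits, which form the barrel and cap that degrade ubiquitin-tagged proteins, held the most losses. Of 32 member genes 8 fell and 0 rose in limma (23 and 0 at an unadjusted p under 0.05), or 25% lower against 1.45% of all genes. In 24 all ife-1 cultures lay below all wild-type cultures, which held for 9.62% of all genes. The list's median share was 61.7%, 59.8% and 54.8% in wild type and 48.1%, 51.4% and 46.6% in ife-1, with a median change of -0.61. The core subunit pas-4 went from 77.7%, 70.5% and 73.8% to 48.2%, 60.3% and 46.8% (change -1.41 ± 0.24, limma adjusted p = 0.017), and pbs-2 from 72.1%, 70.5% and 67.8% to 48.1%, 57.9% and 43.8% (change -1.23 ± 0.23, adjusted p = 0.0188). The core subunits pas-7 (58.5% to 38.5%) and pbs-6 (66.4% to 50.6%) fell with an adjusted p of 0.0184 each.

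In the proteasome list ife-1 culture 2 was the mutant culture nearest to wild type. Nonpolysomal signal had a median change of 0.88 and polysomal signal of 0.26. Combined signal rose for 15 of 32 and fell for 0, where 22.3% of all genes rose and 22.8% fell. The losses numbered 6 under the block, 7 with quantile normalization, 9 with a common array median, 11 without wild-type culture 2, and 0 without ife-1 culture 1 or 3, while the median stayed between -0.67 and -0.51 in these settings. Among 22 genes of ubiquitin conjugation 2 rose and 1 fell, or 9.09% and 4.55% against 2.5% and 1.45% of all genes. The Skp1-related adapter genes skr-19 and skr-21 rose (means 21.4% to 30.6% and 32% to 45.5%) and skr-1 fell (63.9% to 48.2%), with limma adjusted p of 0.0466, 0.0396 and 0.0379. With the block these were 0.0764, 0.0668 and 0.0633.

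Of 69 genes of mitochondrial respiration 3 rose and 4 fell in limma, or 4.35% and 5.80% against 2.5% and 1.45% of all genes, with a median change of 0.13. With the block 1 rose and 1 fell, and with a common array median 0 rose and 3 fell. The share of cyc-1, cytochrome c1 of complex III, was 30.1%, 26.7% and 31.7% in wild type and 47%, 40% and 43.5% in ife-1 (change 0.88 ± 0.19, limma adjusted p = 0.0327). The ATP synthase subunit gene asb-1 went from 75%, 72.3% and 68.3% to 55.3%, 61.8% and 51.8% (change -0.99 ± 0.22, adjusted p = 0.0322). The complex I gene nduf-6 (64.5% to 47.9%) and the complex II gene sdhd-1 (70.1% to 52.9%) fell with adjusted p of 0.0335 and 0.0354, and of 0.0571 and 0.0633 with the block.

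Central carbon metabolism lost 0 of 33 member genes and gained 3 (9.09%, against 2.5% of all genes). These were the mitochondrial malate dehydrogenase mdh-2 (46.5%, 41.7% and 44.3% to 62.5%, 53.8% and 60.1%, change 0.86 ± 0.19, limma adjusted p = 0.0333), the isocitrate dehydrogenase subunit idhb-1 (39.5% to 54.7%) and the pyruvate dehydrogenase subunit pdhb-1 (35.1% to 47.2%). The adjusted p of idhb-1 and pdhb-1 were 0.0379 and 0.0462, and 0.0546 and 0.0703 with the block, which left 1 of the 3 calls, and a common array median left 0. Of 19 V-ATPase subunits, which acidify organelles, vha-1 alone passed (34.8% to 47.1%, limma adjusted p = 0.0458, 0.0534 with the block), or 5.26% against 2.5% of all genes. The intestinal subunit vha-6 was at 35.8% and 47.2% with a limma adjusted p of 0.0555.

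No cytosolic ribosomal protein gene passed the test in share. Of 63 members 0 rose and 0 fell in limma, with 30 higher and 0 lower at p under 0.05 before adjustment. The list's median share was 32.6%, 34.2% and 37.7% in wild type and 41.6%, 37.6% and 45.1% in ife-1. Cultures of the 2 genotypes overlapped narrowly, since wild-type culture 3 and ife-1 culture 2 were nearly equal. The change was above 0 in 62 of 63 genes with the deposited scaling, in 55 with quantile normalization and in 0 with scaling on bacterial controls, where the median of all probe sets was -0.48. The median change was 0.40, or 0.30 relative to all probe sets, and 0.09 relative to all after quantile normalization. As examples, rps-13 had means of 34% and 43.3% (adjusted p = 0.0877), rps-24 of 36.7% and 45.1% (0.105) and rps-28 of 34.9% and 43.5% (0.115).

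Of 48 mitochondrial ribosomal protein genes 0 rose and 1 fell in limma, or 2.08% against the 1.45% of all genes that fell, with 3 higher and 16 lower at p under 0.05 before adjustment, and the median change was -0.23. The gene that fell was mrpl-19, with shares of 51.8%, 51.9% and 47.2% in wild type and 31.2%, 35.7% and 32.1% in ife-1 (change -1.04 ± 0.21, limma adjusted p = 0.0225). Of 26 initiation factor genes eif-3.K, a subunit of the eIF3 complex, fell (66.4% to 52.3%, limma adjusted p = 0.0333, 0.0582 with the block), or 3.85% against 1.45% of all genes. Of 31 genes for elongation and tRNA charging 0 passed, with 5 higher and 2 lower at p under 0.05 before adjustment.

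Splicing and nuclear genes included losses. Of 62 genes in the splicing list 6 fell (9.68%, against 1.45% of all genes) and 0 rose in limma. The list was drawn by gene symbol and takes in DEAD-box genes such as ddx-27, so not every member is a splicing factor. However, the list's median change, -0.05, was near that of all probe sets. It turned to 0.05 with quantile normalization and also without wild-type culture 2. Without ife-1 culture 1 or 3, 0 genes of the list passed. The share of lsm-4 was 69.3%, 69.3% and 66.4% in wild type and 47.3%, 43.7% and 49.8% in ife-1 (change -1.29 ± 0.20, limma adjusted p = 0.0128). The core snRNP gene snr-1 went from 76.6%, 74% and 80.2% to 56.2%, 66.3% and 57.4% (change -1.16 ± 0.22, adjusted p = 0.0197), the DEAD-box gene ddx-27 from a mean of 70.1% to 52% (adjusted p = 0.0184) and the hnRNP gene hrpf-1 from 57.7% to 39.9% (adjusted p = 0.0342). Of 22 nucleoporin genes npp-12, a membrane nucleoporin, fell (74.7% to 60.9%, limma adjusted p = 0.0477, 0.0627 with the block), or 4.55% against 1.45% of all genes.

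Histone genes had 2 losses (7.41%, against 1.45% of all genes) and 0 gains among 27 members. The median change was -0.33, and 23 of 27 changes were below 0. Without wild-type culture 3, ife-1 culture 1 or ife-1 culture 3, 0 histone genes passed. The replacement histone H3 gene his-72 went from 61.1%, 68.5% and 65.6% to 51.2%, 52.7% and 47.9% (change -0.87 ± 0.19, limma adjusted p = 0.0303), and his-2 from 46.1%, 47% and 57.7% to 19.6%, 33.4% and 35.6% (change -1.31 ± 0.30, adjusted p = 0.0362). The linker histone gene hil-2 was at means of 79.6% and 60.6% with an adjusted p of 0.059. Most histone probe sets match near-identical copies, so single genes are uncertain.

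Major sperm proteins form the motility cytoskeleton of nematode sperm. Of 23 members 4 fell and 0 rose in limma (15 and 0 at an unadjusted p under 0.05), or 17.4% lower against 1.45% of all genes. In 14 all ife-1 cultures lay below all wild-type cultures, which held for 9.62% of all genes. The median change was -0.51. The changes ranged from -0.94 to -0.04. The list's median share was 50%, 61.8% and 54.8% in wild type and 44.4%, 48.6% and 45.4% in ife-1, so wild-type culture 2, which had the least sperm signal of the wild-type cultures, had the highest share. The share of msp-64 was 55.1%, 64% and 60.9% in wild type and 40.2%, 48% and 43.5% in ife-1 (change -0.94 ± 0.20, limma adjusted p = 0.029). All 23 probe sets are of the kinds that can match several family members, and the genes msp-64, msp-63, msp-142 and msp-33 that passed cannot be told apart as single copies. With the block 2 passed, with msp-63 and msp-33 at adjusted p of 0.0507 and 0.0703. With quantile normalization 20 passed, and without wild-type culture 2 the median change was -0.37 and 2 passed. Without wild-type culture 3, ife-1 culture 1, ife-1 culture 3 or the variance trend, 0 passed.

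Other sperm genes did not follow. Of 17 members 0 rose and 0 fell in limma, with 1 higher and 1 lower at p under 0.05 before adjustment, and the median change was 0.03. Their summed combined signal over 41 genes was 109352 and 109410 in wild-type cultures 1 and 3, 27190.5 in wild-type culture 2 and 32378 to 41594 in ife-1. Only 17 of the 41 reached the minimum on all arrays, so the set leaves out the other sperm genes. In which cultures these fell below the minimum was not examined.

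Germline and maternal mRNAs had higher combined signal in ife-1. Of 37 oocyte and maternal regulators 2 rose (5.41%, against 2.5% of all genes) and 0 fell in share in limma. In the same fit 15 were higher and 1 lower at p under 0.05 before adjustment, and the median change was 0.35. The share of gld-1, a KH-domain translational repressor of the germline, was 20.1%, 25.2% and 23.1% in wild type and 38.3%, 33.2% and 40.3% in ife-1 (change 1.01 ± 0.19, limma adjusted p = 0.0203). The share of spn-4, a maternal RNA-binding regulator, was 21.9%, 21.4% and 21.6% in wild type and 36.1%, 29.2% and 36.8% in ife-1 (change 0.90 ± 0.19, adjusted p = 0.0272). The groups were separate in both, with ife-1 culture 2 nearest to wild type.

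The combined signal of this list was higher in the mutant cultures. Over 40 oocyte and maternal genes combined signal summed to 248794 to 270800 in wild type and 360162 to 378706 in ife-1. Of the 40, 30 were higher and 0 lower, against 22.3% and 22.8% of all genes. No gene was at 0, and the part of combined signal in the share was not tested. The list's median share was 32.2%, 40.1% and 31.7% in wild type and 42%, 39.9% and 44.2% in ife-1, and wild-type culture 2 overlapped the mutant. Without that culture 8 genes rose, and without ife-1 culture 1 or 3, 0 did. Scaled on bacterial controls the list's median was -0.23, against -0.48 for all probe sets, and 0 rose.

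The mRNAs oma-1, pos-1, mex-1 and pal-1, maternal regulators that other work reports to need IFE-1 for translation, had changes above 0 here, and 0 of 4 passed in limma. The share of pal-1, a caudal homeobox gene, was 16.2%, 20.6% and 17.9% in wild type and 30.2%, 22.8% and 33.7% in ife-1 (change 0.86 ± 0.22, adjusted p = 0.051). That of pos-1, a zinc finger gene, was 28.8%, 33.3% and 29.9% in wild type and 40.4%, 34.7% and 46% in ife-1 (change 0.61 ± 0.20, adjusted p = 0.105). Neither group pair overlapped, and both passed an unadjusted p of 0.05. The zinc finger genes oma-1 and mex-1 had mean shares of 33.6% and 40.6%, and of 41.4% and 44%, with adjusted p of 0.369 and 0.82, and wild-type culture 2 was the highest of all cultures for both, at 45% and 60.3%. The changes of oma-1 and mex-1 were -0.12 and -0.40 when scaled on bacterial controls. A close relative of oma-1, oma-2, was at means of 32% and 42.9% with an adjusted p of 0.069.

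The eIF4E isoforms gave no call in share. The isoform gene ife-2 had shares of 80.8%, 59.4% and 78.6% in wild type and 50.2%, 56.8% and 59.9% in ife-1 (change -1.17 ± 0.35, limma adjusted p = 0.0762), with overlap through wild-type culture 2. For ife-3 the wild-type shares of 41.5%, 47.3% and 40.3% stood beside 52.9%, 44.3% and 48.3% in ife-1, with overlap (adjusted p = 0.381), while its combined signal rose by a log2 change of 1.20 ± 0.16 (adjusted p = 0.00118). Below the minimum were ife-1, ife-4 and ife-5, of which ife-5 had mean shares of 38.8% and 38.3%.

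Genes of the muscle and neuron lists were lower in combined signal. Called higher in share were 2.44% of the muscle and 3.39% of the neuron list, near the 2.5% of all genes, and 0 were lower. Of 41 muscle members dim-1, an immunoglobulin-domain muscle gene, rose (53.3% to 66.8%, limma adjusted p = 0.0462), and the myosin heavy chain gene unc-54 was at 73.1% and 60.5% with an adjusted p of 0.0509. Of 59 members of the neuron list rab-3, a synaptic vesicle GTPase, rose (46.1%, 52.7% and 42% to 64.7%, 63.5% and 60.6%, change 0.94 ± 0.21, limma adjusted p = 0.0333), as did the neuropeptide gene nlp-20 (52.2% to 68%, limma adjusted p = 0.0463, 0.0584 with the block). Summed combined signal over the 144 genes of the neuron list was 232658 to 254097 in wild type and 129807 to 152753 in ife-1, with 91 lower and 1 higher. Over 46 muscle genes it was 366347 to 405621 and 274718 to 298511, with 28 lower and 0 higher. Among all genes 22.8% were lower and 22.3% higher in combined signal. The neuron list was drawn by gene symbol and takes in nlp genes such as nlp-29, so it is not restricted to neurons.

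Membrane trafficking had 2 gains and 3 losses in 76 members, or 2.63% and 3.95% against 2.5% and 1.45% of all genes, and 2 gains and 0 losses with the block. The AP-2 adaptor subunit gene apa-2 rose (35.5% to 52.9%, limma adjusted p = 0.0333), and vps-32.1, of the ESCRT-III complex, and the signal peptidase gene sec-11 fell (59% to 43.3% and 55.4% to 40.6%, adjusted p = 0.0443 and 0.0458, and 0.0658 and 0.0606 with the block). In limma 0 genes passed in either direction among 17 P granule and small RNA genes (4 higher and 0 lower at p under 0.05 before adjustment), 16 meiosis genes (1 and 0), 40 DNA replication and cell cycle genes (2 and 2), 49 chaperones (10 and 2), 5 vitellogenins (0 and 0), 8 basement membrane genes (2 and 1) and 7 tubulins (0 and 2). The 5 vitellogenins, the yolk proteins of the intestine, summed to 123221 to 135169 in wild type and 152759 to 188706 in ife-1. Of the called genes, 62 of 181 that rose and 34 of 92 that fell belonged to any of the 30 lists.

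**Figure D5:**
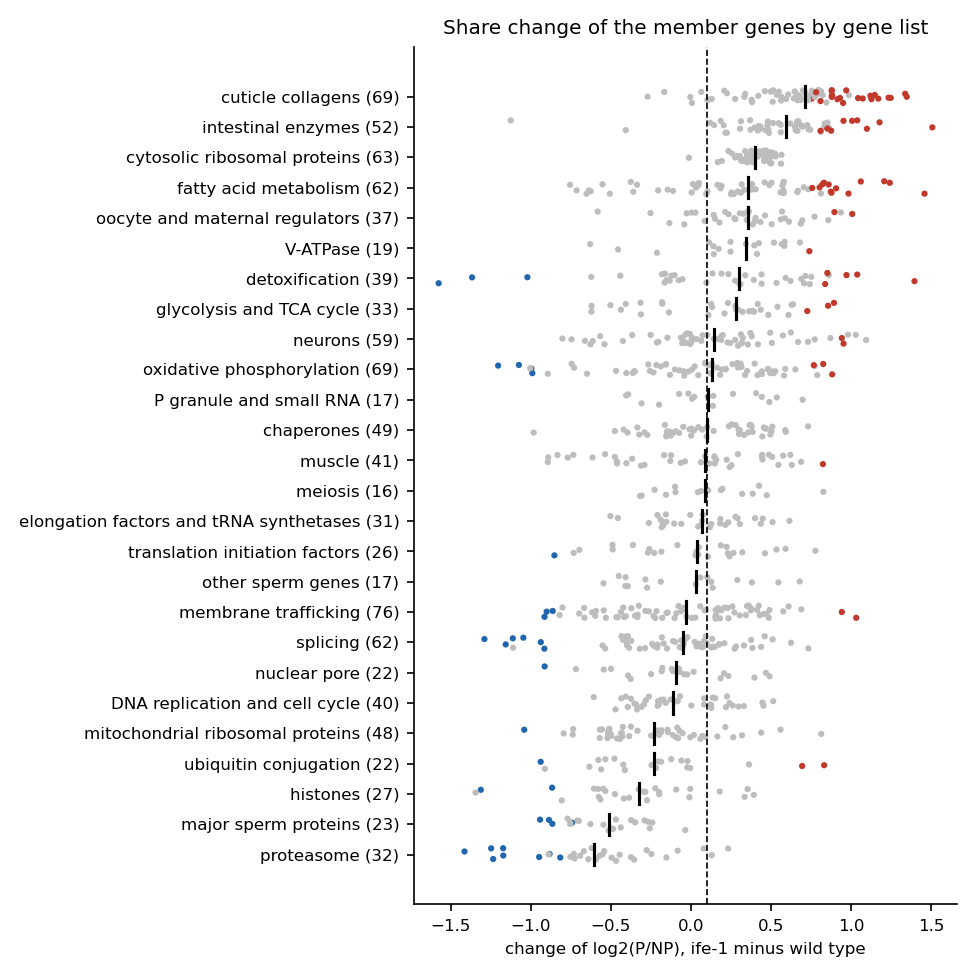
Change of log2(P/NP), ife-1 minus wild type (x axis), of each member gene in the lists with at least 15 members (y axis, number of member genes in brackets); black bars are list medians, the dashed line the median of all probe sets, and red and blue points passed the test. Cuticle collagens and intestinal enzymes lie at the top with medians of 0.71 and 0.59, proteasome and major sperm proteins at the bottom with -0.61 and -0.51.

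Repeated probe sets of a gene did not always move alike. Of the 181 genes that rose, 56 had more than 1 member probe set. In 46 of these all others had the same sign, and in 9 another was called. Of the 92 that fell, 4 had more than 1, with the same sign in 4 and another call in 1. The authors' deposited table gives a mean fold of the share, wild type over ife-1, which was recomputed from the signals to within 0.001 for all 6567 members. In the authors' deposited table, the fold of 18 members above 1.5, of which 14 fell in ife-1 by limma, and that of 47 was below the reciprocal of 1.5, of which 37 rose.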

How the data were processed

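The data are 12 Affymetrix arrays of 6 cultures, each with a polysomal and a nonpolysomal pool. Per the labels, the deposited intensities are linear probe set signals imported raw from the Affymetrix files; labels and headers name no software, version or scaling. Per the file headers, the authors kept 13372 of 22626 probe sets by detection, and 39 controls among these were removed here. Array medians were 367 to 429. The authors also deposited the mean fold ratio of the share, per the file headers, and detection calls that could be assigned to groups, not arrays. Not used were 45 further per-sample columns of the same workbook.

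Signals below 1 were set to 1, and shares were formed from the signals as deposited. Both log2(P/NP) and log2(P + NP) were compared with limma 3.58.1 (lmFit, eBayes with a prior trend on mean log2 signal) in R 4.3.3. The fit covered all 13333 probe sets, with Benjamini-Hochberg adjustment and a threshold of 0.05. It was run on simulated data with variances drawn from its own fitted trend, which cannot check that trend. Genes were named by the platform annotation (6267 of 6276 matched to RefSeq); of several probe sets the brightest was used. Tables and figures used pandas 2.3.3 and matplotlib 3.10.9 in Python 3.11.15. Precision is limited by the number of arrays.

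The deposited outline pairs wild-type and ife-1 cultures by growth set, so the set is a block in an alternative fit; deviations of same-numbered cultures correlated at -0.0506, -0.0689 and 0.0735 over the members. Named were the eIF4E isoforms, the 15 largest non-overlapping called changes each way, up to 4 genes per list by smallest p, reported targets, extremes of wild-type share and the genes nearest the minimum. The members, gene lists and the variance trend were chosen with earlier results of these data known. No sequences were used here.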

Additional observations from a re-analysis of the deposited data

How the results depend on the processing

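With 3 cultures per genotype, the calls rest on variance borrowed across probe sets, and on ife-1 cultures 1 and 3. Of the counts of higher and lower share (215 and 115), quantile normalization, quantile normalization within each fraction, 50 added to each signal and shares in percent kept both within 1.5 times. Both were 0 without the variance trend (860 and 486 at an unadjusted p under 0.05, limma), 420 and 215 when fitted on the members only, and 138 and 65 with the replicate block; a block with quantile normalization, added after seeing the data, gave 177 and 93. Arrays scaled to a common median gave 86 higher, and bacterial scaling gave 8 higher and 782 lower, with 328 members lower in combined signal, 76 non-overlapping above and 2231 below. A minimum of 500 left 3476 members, with 65 lower in share, 950 higher and 601 lower in combined signal, and 791 and 422 non-overlapping above and below. A minimum of 100 gave 9229 members, with 1788 lower in combined signal. A mean of at least 200 gave 9727 members, with 177 lower in share and 2113 lower in combined signal. The counts under these minima thus come from sets of another size than 6567. The cause of the shifts was otherwise not tested.

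Leaving out growth sets or single cultures gave 2 to 797 higher and 0 to 410 lower in share, 167 to 2335 higher and 300 to 1332 lower in combined signal, and 1400 to 2813 non-overlapping above and 895 to 1521 below. A non-overlap count can only stay the same or rise when cultures are left out, so its range does not measure stability. The median share change of the members was 0.0312 with a common array median and -0.49 with bacterial scaling, which shifts all probe sets, and 0.05 to 0.14 with a set or culture left out. Of uncalled genes, bacterial scaling turned the change of oma-1 to -0.12, mex-1 to -0.40, rps-13 to -0.0172, rps-24 to -0.079, rps-28 to -0.0572, fat-5 to -0.40, cnc-4 to -0.52, hsr-9 to -0.19 and ife-3 to -0.26, and a common median turned cnc-4 to -0.002. With a set or culture left out, the change ranged from -0.18 to 0.81 for mex-1, -0.26 to 0.43 for cnc-4, -0.20 to 0.30 for dod-6 and -0.20 to 0.23 for ife-5.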
